A study of Mus musculus with 8 samples.

Results

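The dorsal telencephalon patterning factors examined here were 9 transcription factor genes, Emx1, Emx2, Lhx2, Lhx9, Pax6, Nr2f1, Sp8, Dmrt3 and Dmrta2, chosen by symbol from the 48709 genes counted in the cortex of postnatal day 3 (P3) mice. All 9 were found and all passed the filter on low counts, which kept 16525 genes for testing. The RNA sequencing compared 4 dcKO_hGFAP-Cre cortices with 4 control cortices of C57BL/6J mice. The dcKO_hGFAP-Cre mice carried floxed alleles of BAF155 and BAF170 on both chromosomes (BAF155 fl/fl, BAF170 fl/fl) together with hGFAP-Cre, a transgene that uses the human GFAP promoter to express Cre recombinase in radial glia of the dorsal telencephalon late in embryonic neurogenesis. BAF155 and BAF170, encoded by Smarcc1 and Smarcc2, are the scaffolding subunits of the BAF chromatin remodeling complex. The methods of the study give the controls as Cre-positive mice with a floxed allele of each gene on 1 chromosome, whereas their labels read wild type or control. Cells in which hGFAP-Cre is not active keep both genes, so each mutant sample is a mixture. Total counts were 21126713 to 31805395 per control sample and 22002784 to 32110285 per mutant sample. Expression is given as CPM, a gene's share of a library scaled to a common total and normalized by the TMM method of edgeR. The quasi-likelihood test of edgeR was applied to each gene, p-values were adjusted across the 16525 genes (Benjamini-Hochberg), and a gene was called changed at an adjusted p under 0.05. The replicates are labelled as separate samples, and nothing in the labels says how the animals were related or whether any were littermates. Smarcc1 had a mean of 159 CPM in control and 81.2 CPM in mutant samples (edgeR log2 fold change -0.97, adjusted p = 5.44e-06), and Smarcc2 of 483 and 283 CPM (-0.77, adjusted p = 2.28e-05). For both genes every mutant sample lay below every control sample, and transcripts of both remained.

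The dorsal telencephalon is divided into areas by transcription factors that progenitors of the ventricular zone hold in gradients. Emx2 and Nr2f1 are high caudally, Pax6 and Sp8 are high rostrally, and Dmrt3 and Dmrta2 follow a medial to lateral gradient. Lhx2 gives progenitors a cortical identity and keeps them from becoming cortical hem, the signaling center at the medial edge, whereas the antihem lies at the lateral edge and FGF signals come from the rostral pole. Several of these factors are also used later, in postmitotic neurons (Nr2f1, Lhx2, Emx1), in Cajal-Retzius cells (Lhx9) or in interneurons (Pax6, Sp8, Nr2f1).

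In dcKO_hGFAP-Cre cortex, Emx1 and Lhx2 fell, while Lhx9, Pax6, Nr2f1 and Dmrt3 rose, and Emx2, Sp8 and Dmrta2 were not called. Thus 2 of 9 factors were called lower, against 18.9% of all genes tested, and 4 of 9 were called higher, against 18.6%. In either direction 6 of 9 were called (66.7%), against 37.5% of all genes. The CPM ranges of both groups did not overlap for 5 factors, 3 with every mutant above (16.7% of all genes) and 2 with every mutant below (17.7%). The median absolute log2 fold change was 1.10 among the 9 factors and 0.29 among all genes, whereas the signed medians were -0.04 and 0.02. The summed level of the 9 factors was 430, 357, 448 and 444 CPM in control replicates 1 to 4 and 382, 455, 346 and 422 CPM in mutant replicates 1 to 4. The sums of both groups overlapped. Nr2f1 (means of 176.4 and 248.6 CPM in control and mutant) and Lhx2 (145.9 and 51.3 CPM) made up most of them, so the sums say little about the other factors. In these bulk samples, fewer cells of a type and less RNA per cell cannot be told apart.

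**Figure D1:**
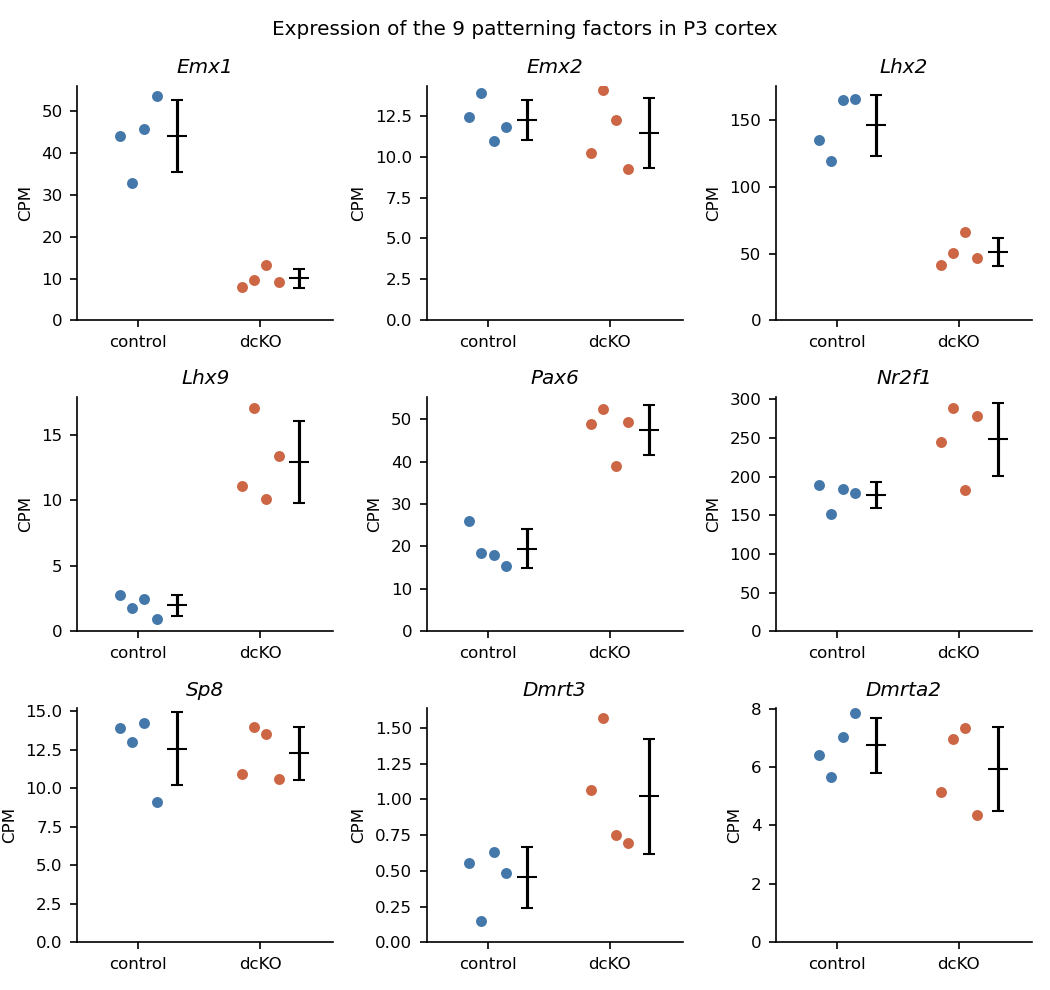
CPM of each of the 9 factors in each sample, with 4 control and 4 dcKO_hGFAP-Cre samples as points and the mean with its SD as a bar beside them (each panel has its own axis from 0). The groups do not overlap for Emx1, Lhx2, Lhx9, Pax6 and Dmrt3, and they do for Emx2, Nr2f1, Sp8 and Dmrta2.

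Among the called factors, Lhx2 and Pax6 had a window of 250 bases before a RefSeq start site that holds no annotated exon, and these windows are printed since the genes, both on chromosome 2, changed in opposite directions. They were read from RefSeq (GRCm38.p6, plus strand), at chr2:38339031-38339280 for Lhx2 and chr2:105668646-105668895 for Pax6. Capitals mark the GC box, GGGCGG or its reverse complement, a motif bound by Sp family factors.
Lhx2 promoter: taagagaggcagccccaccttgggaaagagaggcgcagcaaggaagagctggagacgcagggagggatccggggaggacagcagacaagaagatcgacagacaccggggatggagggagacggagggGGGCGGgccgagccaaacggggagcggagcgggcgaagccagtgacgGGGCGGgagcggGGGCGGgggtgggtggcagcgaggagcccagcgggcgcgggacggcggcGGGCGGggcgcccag
Pax6 promoter: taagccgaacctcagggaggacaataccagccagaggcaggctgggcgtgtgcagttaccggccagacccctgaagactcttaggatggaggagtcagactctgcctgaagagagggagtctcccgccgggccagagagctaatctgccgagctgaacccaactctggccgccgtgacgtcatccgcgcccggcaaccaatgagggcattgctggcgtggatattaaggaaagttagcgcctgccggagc
The Lhx2 window held 4 GC boxes, 72.8% G or C and 25 CpG dinucleotides, and the Pax6 window held no GC box, 60.8% G or C and 15 CpG dinucleotides. The ratio of observed to expected CpG was 0.89 for Lhx2 and 0.65 for Pax6, against a median of 0.37 over 32841 promoter windows of the same length from 27018 genes. RefSeq gave 14 windows of this length for the 9 factors, of which 11 were above this median. At least 1 window was above it for 8 of the 9 factors. Most of the 14 windows overlapped an annotated exon. Some start sites lay far inside the annotated gene, 12027 bases from its start for Lhx2 and 13563 bases for Pax6. The counts over the 14 windows therefore include transcribed sequence. A GC box was found in 5 of the 14 windows, against 32.7% of all windows, and a CCAAT box (CCAAT, either strand) in 7 of 14, against 33.9%. The other Lhx2 window held no GC box, and a window of Nr2f1, which rose, held 1. A TATA box (TATAAA, either strand) was found in 1 of 14, against 12.4%, and the homeodomain core TAATTA in 1 of 14, against 4.84%. Binding and chromatin at these windows were not measured in this experiment.

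Emx1, a homeobox gene on chromosome 6 (85187438 to 85204462, plus strand, mm10) that marks the dorsal telencephalic lineage and its excitatory neurons, showed the larger fall. In control replicates 1 to 4 it stood at 44.1, 32.8, 45.6 and 53.7 CPM, and in mutant replicates 1 to 4 at 8.08, 9.75, 13.1 and 9.18 CPM. All 4 mutant samples were far below the lowest control, and the highest mutant was replicate 3. The means were 44.1 ± 8.58 CPM in control and 10.03 ± 2.18 CPM in mutant (SD, n = 4 each), 4.39-fold lower in the mutant. The edgeR log2 fold change was -2.13 (SE 0.17, adjusted p = 5.31e-06), and the exact two-sided permutation test over 70 arrangements gave p = 0.0286, the smallest it allows. A change as large in either direction was seen in 0.938% of all genes tested. Every lane held both groups, and the log2 ratio of mutant to control was -2.11 in lane 5 (2 samples of each group), -1.80 in lane 6 and -2.55 in lane 7 (1 of each).

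Lhx2, a LIM-homeobox gene on chromosome 2 (38339281 to 38369733, plus strand), whose loss in early progenitors turns cortical primordium into hem, fell as well. It was at 134.8, 118.9, 164.5 and 165.3 CPM in control replicates 1 to 4 and at 41.5, 50.3, 66.3 and 46.9 CPM in mutant replicates 1 to 4. No mutant sample reached the control range, and replicate 3 was again the highest of them. The means were 145.9 ± 22.9 and 51.3 ± 10.7 CPM (SD, n = 4 each), 2.85-fold lower in the mutant, with an edgeR log2 fold change of -1.51 (SE 0.15, adjusted p = 3.23e-05). The log2 ratios within lanes 5, 6 and 7 were -1.47, -1.31 and -1.82.

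Markers of cortical excitatory neurons, which also express Emx1 and Lhx2, moved with these falls. Of 8 such markers 6 were called lower and none higher, and their summed level was 1788 to 1969 CPM in control and 957 to 1138 CPM in mutant samples. Neurod6, a transcription factor of postmitotic excitatory neurons, had a mean of 415 CPM in control and 101 CPM in mutant. Radial glia, the other cells that hold these factors, gave a mixed picture. Of 10 radial glia markers 2 were lower and 3 higher, and their sum was 2528 to 2787 CPM in control and 2177 to 3232 CPM in mutant samples, with overlapping ranges. Sox2, a progenitor factor, rose from 56.3 to 92.3 CPM, whereas Nes, an intermediate filament of progenitors, fell from 82.0 to 45.7 CPM. The part of these cell types in the changes of Emx1 and Lhx2 was not tested.

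Lhx9, a LIM-homeobox gene on chromosome 1 (138825186 to 138848577, minus strand), is expressed in the medial pallium, the diencephalon and subsets of Cajal-Retzius cells, and it showed the largest rise of the 9 factors. It was at 2.76, 1.77, 2.49 and 0.972 CPM in control replicates 1 to 4 and at 11.1, 17.1, 10.1 and 13.4 CPM in mutant replicates 1 to 4. Every mutant sample stood well above the highest control, and mutant replicate 2 was the highest. The means were 1.999 ± 0.802 and 12.9 ± 3.09 CPM (SD, n = 4 each), 6.48-fold higher in the mutant. The edgeR log2 fold change was 2.70 (SE 0.28, adjusted p = 4.02e-05), and only 0.387% of all genes tested changed as much. The control level rested on 60, 36, 75 and 28 counts, and the mutant level on 259, 403, 297 and 444 counts. The log2 ratios within lanes 5, 6 and 7 were 2.63, 2.02 and 3.79.

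Other tissues and cells that hold Lhx9 were examined by their markers. Of 6 thalamus markers 2 were lower and 2 higher, with overlapping sums of 110 to 123 CPM in control and 96.2 to 126 CPM in mutant samples. Gbx2, a homeobox gene of thalamic neurons, was at 0 to 0.0493 CPM in the controls and at 1.09 to 1.95 CPM in the mutants. Tcf7l2, the other thalamus marker called higher, had means of 3.996 CPM in control and 6.04 CPM in mutant samples (edgeR adjusted p = 0.00678). Prkcd, a protein kinase C gene, and Rora, a nuclear receptor gene, went the other way, and both were called lower. Their means went from 37.9 to 19.0 CPM and from 21.1 to 15.4 CPM (edgeR adjusted p = 4.87e-06 and 0.0161). Slc17a6, the most abundant of the 6 markers, had means of 51.9 and 61.1 CPM in control and mutant and was not called. Of 6 Cajal-Retzius markers 4 were higher and none lower, while their sums overlapped at 242 to 422 CPM in control and 342 to 464 CPM in mutant samples, most of it from Reln. Choroid plexus, which arises beside the cortical hem, was uneven among mutants. The summed level of its 7 markers was 619, 1185, 23.8 and 7.9999 CPM in mutant replicates 1 to 4, against 4.27 to 13.5 CPM in control. Most of the sum in mutant replicates 1 to 3 was Ttr, the transthyretin gene, at 584, 1128 and 15.8 CPM, whereas in mutant replicate 4 Ttr was at 1.72 CPM, within the control range of 0.0664 to 9.37 CPM. Otx2, a homeobox gene of choroid plexus and other cells, was at 3.07 to 13.6 CPM in the 4 mutants and 0.0694 to 0.276 CPM in the controls. Mutant replicate 2, the highest for these markers, also had the most Lhx9, and replicate 4, the lowest for them, had the second most. With mutant replicates 1 and 2 both left out, the log2 fold change of Lhx9 was 2.56 (edgeR adjusted p = 0.00101). The part of thalamic, Cajal-Retzius and choroid plexus cells in the rise was not tested.

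Pax6, a paired-box gene on chromosome 2 (105668900 to 105697364, plus strand) needed for radial glia, neurogenesis and the pallial-subpallial boundary, also rose. Control replicates 1 to 4 were at 26.0, 18.4, 18.1 and 15.4 CPM and mutant replicates 1 to 4 at 49.0, 52.4, 38.9 and 49.4 CPM. The lowest mutant, replicate 3, was above the highest control. The means were 19.5 ± 4.54 and 47.4 ± 5.86 CPM (SD, n = 4 each), 2.44-fold higher in the mutant, with an edgeR log2 fold change of 1.28 (SE 0.15, adjusted p = 6.35e-05). Within lanes 5, 6 and 7 the log2 ratios were 1.19, 1.11 and 1.68. Pax6 is held by progenitors and by some olfactory bulb interneurons. Markers of caudal and olfactory bulb interneurons summed to 78.2 to 87.0 CPM in control and 131 to 173 CPM in mutant samples. Of these 3 of 6 were called higher and none lower. The called genes were Tshz1 (means of 33.6 and 76.2 CPM in control and mutant), Sp9 (14.7 and 36.5 CPM) and Th (0.438 and 1.12 CPM). Htr3a (6.89 and 5.77 CPM), Vip (4.97 and 4.08 CPM) and Prox1 (22.5 and 27.1 CPM) were not called. The part of these interneurons in the rise of Pax6 was not tested.

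Nr2f1 (COUP-TFI), a nuclear receptor on chromosome 13 (78188973 to 78199757, minus strand) that specifies caudal and sensory areas, rose by a smaller amount. It was at 189.5, 151.9, 184.7 and 179.6 CPM in control replicates 1 to 4 and at 244.7, 288.4, 183.3 and 278.1 CPM in mutant replicates 1 to 4. Replicates 1, 2 and 4 of the mutant were above all controls, whereas replicate 3 lay within the control range. The means were 176.4 ± 16.9 and 248.6 ± 47.4 CPM (SD, n = 4 each). The edgeR log2 fold change was 0.49 (SE 0.13, adjusted p = 0.0108), a size reached by 28.6% of all genes, and the exact permutation test gave p = 0.0857. Within lanes 5, 6 and 7 the log2 ratios were 0.64, -0.01 and 0.63, so no rise was seen in lane 6. With mutant replicates 1 and 2 both left out, the log2 fold change was 0.39 and the call was lost (edgeR adjusted p = 0.124). GABAergic interneurons, many of which express Nr2f1, had 9 of 10 markers higher and none lower, with sums of 629 to 660 CPM in control and 985 to 1049 CPM in mutant samples, and mutant replicate 3 was among them at 1000 CPM. The part of interneurons in the level of Nr2f1 was not tested.

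Dmrt3, a doublesex-related gene on chromosome 19 (25610301 to 25623921, plus strand) of medial and early cortical progenitors, was the least abundant factor and its call was the least firm. It had 12, 3, 19 and 14 counts in control replicates 1 to 4 and 25, 37, 22 and 23 counts in mutant replicates 1 to 4. In CPM these were 0.552, 0.148, 0.631 and 0.486 in control and 1.07, 1.57, 0.751 and 0.694 in mutant samples. The groups did not overlap, but mutant replicates 3 and 4 were close to the highest control. The edgeR log2 fold change was 1.10 (SE 0.39, adjusted p = 0.0402), and the log2 ratios within lanes 5, 6 and 7 were 1.91, 0.25 and 0.51. Mutant replicates 1 and 2, the highest for Dmrt3, were also those rich in choroid plexus markers, and without both the log2 fold change was 0.63 (edgeR adjusted p = 0.368). The part of choroid plexus in the level of Dmrt3 was not tested. The call was also lost when control replicate 1, 2 or 4 or mutant replicate 1 or 2 alone was left out, with edgeR adjusted p of 0.0522, 0.0902, 0.0787, 0.0859 and 0.136 in that order. With mutant replicates 1 and 2 both left out, 2 of the 9 factors in place of 4 were called higher, Lhx9 and Pax6, while the share of all genes called higher went from 18.6% to 8.06%.

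**Figure D2:**
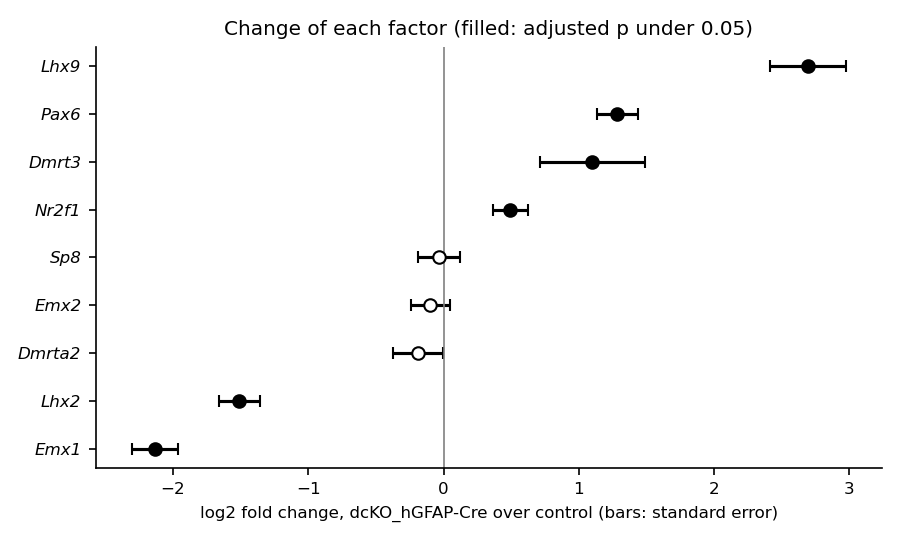
Log2 fold change of each factor, dcKO_hGFAP-Cre over control, with its standard error from edgeR (filled points have an adjusted p under 0.05, open points do not). The estimates run from -2.13 for Emx1 to 2.70 for Lhx9, with Emx2, Sp8 and Dmrta2 close to 0.

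Emx2, the homeobox relative of Emx1 on chromosome 19 (59458372 to 59465357, plus strand) that is needed for caudal areas and the hippocampus, was not called. It was at 12.4, 13.9, 11.0 and 11.8 CPM in control replicates 1 to 4 and at 10.2, 14.1, 12.2 and 9.27 CPM in mutant replicates 1 to 4. The groups overlapped, and the highest sample of all was mutant replicate 2. The edgeR log2 fold change was -0.10 (SE 0.14, adjusted p = 0.618). Sp8, a zinc finger factor on chromosome 12 (118846329 to 118852576, plus strand) that acts with FGF8 in rostral cortex and is held by some interneurons, was at 13.9, 13.0, 14.2 and 9.13 CPM in control and at 10.9, 14.0, 13.5 and 10.6 CPM in mutant replicates 1 to 4. Control replicate 4 was the lowest sample, and the mutant values lay within the control range. The edgeR log2 fold change was -0.04 (SE 0.16, adjusted p = 0.875). Dmrta2, a doublesex-related gene on chromosome 4 (109978053 to 109983687, plus strand) that keeps cortical progenitors dividing and is needed for the hem, was at 6.40, 5.67, 7.04 and 7.84 CPM in control and at 5.13, 6.95, 7.33 and 4.35 CPM in mutant replicates 1 to 4. Mutant replicates 1 and 4 were below every control and the other two within their range, with an edgeR log2 fold change of -0.19 (SE 0.18, adjusted p = 0.449). For these 3 genes no difference was detectable with 4 samples a group, which does not show that their levels were equal.

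Mutant replicate 3 was the mutant sample nearest to the control mean for 5 of the 6 called factors, and for Dmrt3 it was replicate 4. Replicate 3 also had the highest sums of radial glia markers (3232 CPM, against 2177 to 2463 CPM in the other mutants) and of astrocyte markers (833 CPM, against 289 to 355 CPM in the other mutants and 545 to 674 CPM in control). Its Smarcc1 level was 86.9 CPM, the highest of the mutants, and its Smarcc2 level 256 CPM, the lowest. The part of these differences in the values of replicate 3 was not tested.

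Among the factors are 3 pairs of close relatives, and whether the members of a pair changed by different amounts was tested on their ratio within each sample, per length of exon. The ratio of Emx2 to Emx1 was 0.160 to 0.307 in control and 0.676 to 1.05 in mutant samples. On the log2 scale it went from -2.29 ± 0.42 to -0.26 ± 0.29 (SD, n = 4 each), a difference of 2.02. Thus Emx1 exceeded Emx2 in all 4 controls, while the levels of both genes were close in the mutants. The ratio of Lhx9 to Lhx2 was 0.00272 to 0.00948 in control and 0.0707 to 0.157 in mutant samples, a log2 difference of 4.29. Lhx2 was still 8.62-fold above Lhx9 per length in the mutants. The ratio of Dmrta2 to Dmrt3 was 9.34 to 32.1 in control and 3.71 to 8.18 in mutant samples, a log2 difference of -1.49 that carries the low counts of Dmrt3. The groups were apart for each of the 3 ratios. The exact two-sided permutation test gave p = 0.0286 for each, the smallest it allows, also after Benjamini-Hochberg adjustment over the 3 pairs. Every mutant was above every control for Lhx9 and below every control for Lhx2, so that ratio had to separate. In the other pairs Emx1 and Dmrt3 were already apart alone, while Emx2 and Dmrta2 overlapped. The ratios thus largely restate the changes of single members and are no further evidence.

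**Figure D3:**
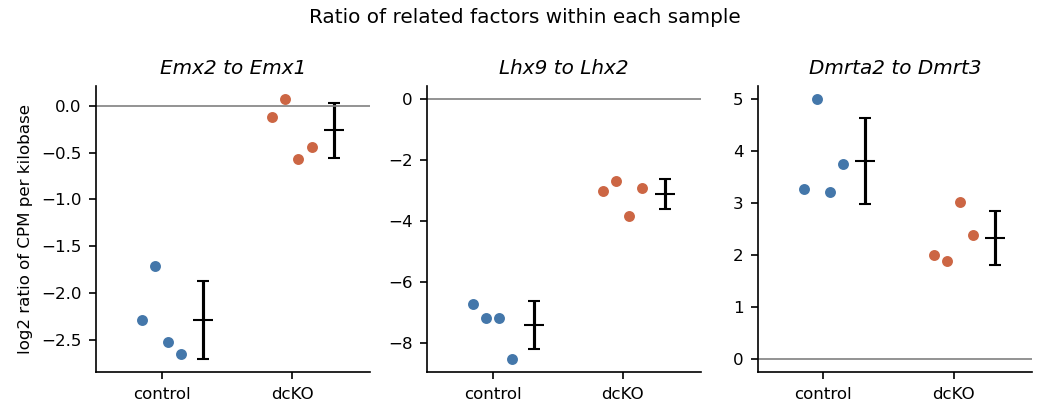
Log2 ratio of the 2 members of each related pair in each sample, per kilobase of exon, with control and dcKO_hGFAP-Cre samples as points and the mean with its SD as a bar. The mutants lie above the controls for Emx2 to Emx1 and Lhx9 to Lhx2, and below them for Dmrta2 to Dmrt3.

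Levels can be compared between genes only per length, and in CPM per kilobase of exon the control order was Nr2f1 (34.6), Lhx2 (33.2), Emx1 (20.2), Emx2 (4.08), Sp8 (2.76), Dmrta2 (2.31), Pax6 (1.67), Lhx9 (0.211) and Dmrt3 (0.186). The ranges of the 4 control samples overlapped between the neighbours Nr2f1 and Lhx2, Sp8 and Dmrta2, Dmrta2 and Pax6, and Lhx9 and Dmrt3, and were apart between the other neighbours. In the mutants the order was Nr2f1 (48.8), Lhx2 (11.7), Emx1 (4.59), Pax6 (4.05), Emx2 (3.81), Sp8 (2.69), Dmrta2 (2.03), Lhx9 (1.36) and Dmrt3 (0.417). Pax6 thus moved from place 7 to place 4, although its mutant range overlapped those of Emx1 and Emx2 on either side. Nr2f1 and Lhx2, which overlapped in control, were apart in the mutants.

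**Figure D4:**
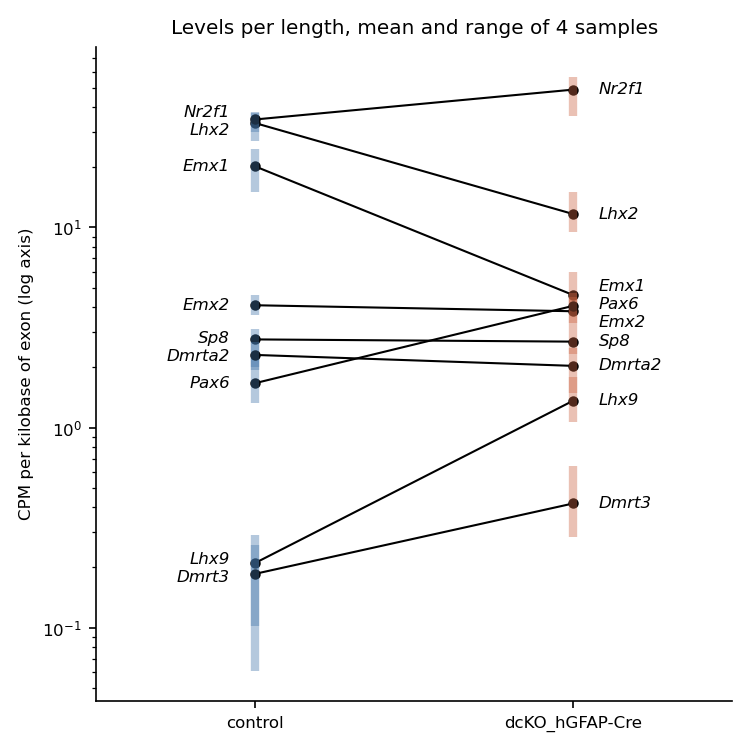
Level of each factor in CPM per kilobase of exon on a log axis, with lines joining the means of 4 control and 4 dcKO_hGFAP-Cre samples and shaded bars for the lowest to highest sample. Lhx2 and Emx1 slope down from 33.2 and 20.2 to 11.7 and 4.59, Pax6 and Lhx9 slope up, and the lines of Emx2, Sp8 and Dmrta2 stay nearly level.

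Of the factors, 4 have annotated antisense genes on the opposite strand, and the library kit does not mark strand, so reads in shared stretches cannot be assigned to a strand. Emx2os shares 264 exon bases with Emx2. Its mean was 1.37 CPM in control samples and 2.87 CPM in mutants (edgeR log2 fold change 1.09, adjusted p = 0.0202, overlapping groups), whereas Emx2 itself was not called. Pax6os1, whose span covers the printed Pax6 window and which shares no exon bases with Pax6, rose as Pax6 did, from 0.183 to 0.683 CPM with no overlap (log2 fold change 1.88, edgeR adjusted p = 0.00223). Gm27197, inside Lhx2 with no shared exon bases, fell as Lhx2 did, from 0.839 to 0.312 CPM with no overlap (log2 fold change -1.43, edgeR adjusted p = 0.00497). Gm13584, also inside Lhx2, was too low to be tested. A830082K12Rik shares 123 exon bases with Nr2f1 and was at 32.2 and 41.2 CPM (log2 fold change 0.35, edgeR adjusted p = 0.0183, overlapping groups).

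The relatives and partners of the factors were examined from 8 lists of 85 genes, of which 78 were tested, 25 were called lower and 26 higher. Among all genes tested 18.9% were lower and 18.6% higher, the shares to set beside the counts of these lists and of the marker lists. Counts near these shares are not read as results about a list. Among 8 family relatives 5 were higher and none lower, with a median log2 fold change of 0.65 against 0.02 over all genes. Sp9, the paralog of Sp8 that acts in striatal and interneuron precursors, rose from 14.7 to 36.5 CPM (log2 fold change 1.31, edgeR adjusted p = 8.22e-06), whereas Sp8 was not called. The LIM-homeobox genes Lhx1 (1.36 to 5.13 CPM, adjusted p = 0.000519), Lhx5 (1.52 to 2.75 CPM, 0.0281), Lhx6 (103 to 133 CPM, 0.00584) and Lhx8 (0.439 to 1.75 CPM, 0.0127) also rose, of which Lhx8 overlapped between the groups. Lhx1 and Lhx5 mark Cajal-Retzius cells, and Lhx6 and Lhx8 mark derivatives of the medial ganglionic eminence. Nr2f2, the paralog of Nr2f1, had means of 45.4 and 63.1 CPM (adjusted p = 0.143), Nr2f6 of 18.1 and 17.8 CPM (0.886) and Dmrta1 of 2.43 and 1.602 CPM (0.0725), none of them called.

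Of 14 cofactors and binding partners 6 were lower and 3 higher, with a median log2 fold change of -0.04. Ldb2, a LIM-domain binding protein that links LIM-homeobox factors into complexes, fell from 154 to 79.7 CPM (-0.95, edgeR adjusted p = 0.000153), and its paralog Ldb1 was not called. Lmo3, a LIM-only protein, rose from 222 to 335 CPM (0.60, edgeR adjusted p = 0.000325). Bcl11a, a zinc finger factor of cortical neurons, fell from 289 to 166 CPM (-0.80, edgeR adjusted p = 0.000139). Meis1, a homeobox factor of striatal and other ventral cells, rose from 3.66 to 9.64 CPM (1.40, edgeR adjusted p = 0.000485).

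Of 12 other forebrain patterning factors 2 were lower and 6 higher, with a median log2 fold change of 0.46. Sall3, a zinc finger factor, fell from 24.6 to 20.3 CPM (-0.27, edgeR adjusted p = 0.0483). Tfap2c (AP2gamma), a factor of basal progenitors that is known as a target of Pax6, rose from 1.99 to 21.8 CPM (3.46, edgeR adjusted p = 4.87e-06). Zic4, a zinc finger factor of the medial and septal wall, rose from 3.23 to 8.60 CPM (1.41, edgeR adjusted p = 0.00119).

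Of 6 neurogenic factors downstream of Pax6, 4 were tested and 3 were higher, with none lower and a median log2 fold change of 0.67. Neurog2, a proneural factor of dorsal progenitors, rose from 1.94 to 12.7 CPM (2.71, edgeR adjusted p = 1.13e-06) with no overlap. Eomes (Tbr2), which marks intermediate progenitors, rose from 3.57 to 5.78 CPM (0.70, edgeR adjusted p = 0.0265) with overlapping groups. Neurog1 and Neurod4 were too low to be tested.

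Genes of the signaling centers were read as a further setting in which the factors act. Of 16 cortical hem genes 13 were tested, with 6 higher and none lower and a median log2 fold change of 0.61. Wnt8b, a hem Wnt ligand, had 6, 0, 0 and 1 counts in control replicates 1 to 4 and 34, 26, 23 and 32 counts in mutant replicates 1 to 4. Lmx1a, a LIM-homeobox factor that marks the hem, had 5, 3, 8 and 1 counts in control and 58, 68, 18 and 39 counts in mutant samples. Both were nearly at 0 in control and called higher by edgeR (adjusted p = 0.000717 and 0.00125), and for Lmx1a mutant replicates 1 and 2, rich in choroid plexus markers, were the highest.

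Of 11 genes of rostral FGF signaling 10 were tested, with 6 lower and 1 higher and a median log2 fold change of -0.44. Etv5, a factor induced by FGF, fell from 43.9 to 24.1 CPM (-0.86, edgeR adjusted p = 6.48e-05), and the ligand gene Fgf18 from 3.18 to 1.92 CPM (-0.73, edgeR adjusted p = 0.0129). The other lower calls were Il17rd, Dusp6, Etv1 and Etv4. The only gene called higher was the ligand gene Fgf15. It had 7, 2, 7 and 0 counts in control and 33, 49, 22 and 54 in mutant replicates 1 to 4 (edgeR adjusted p = 0.00104). The ligand gene Fgf17 leaned up and was not called (1.33, edgeR adjusted p = 0.0506, overlapping groups). Fgf8, too low to be tested, had 0, 1, 0 and 0 counts in control and 2, 3, 2 and 3 in mutant replicates 1 to 4. Of 6 antihem genes 5 were tested, with 1 lower and 2 higher and a median log2 fold change of 0.43. The Wnt inhibitor gene Sfrp2 rose from 11.2 to 18.1 CPM (edgeR adjusted p = 0.000505) and the ligand gene Tgfa from 42.01 to 105 CPM (0.0174, overlapping groups), and the ligand gene Nrg3 fell from 71.8 to 38.7 CPM (1.23e-05).

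Genes with area-restricted expression in cortical neurons, often used to read the action of the patterning factors, were mostly lower. Of 12 such genes 10 were lower and none higher, with a median log2 fold change of -0.69. Cdh6, a cadherin gene of lateral and sensory areas, fell from 19.5 to 9.01 CPM (-1.11, edgeR adjusted p = 0.000282), and Crym, a crystallin gene of rostral and deep-layer neurons, from 120 to 55.7 CPM (-1.10, edgeR adjusted p = 0.000921). The summed markers of excitatory neurons, given above, also fell in every mutant sample, and their part in the change of the area genes was not tested.

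**Figure D5:**
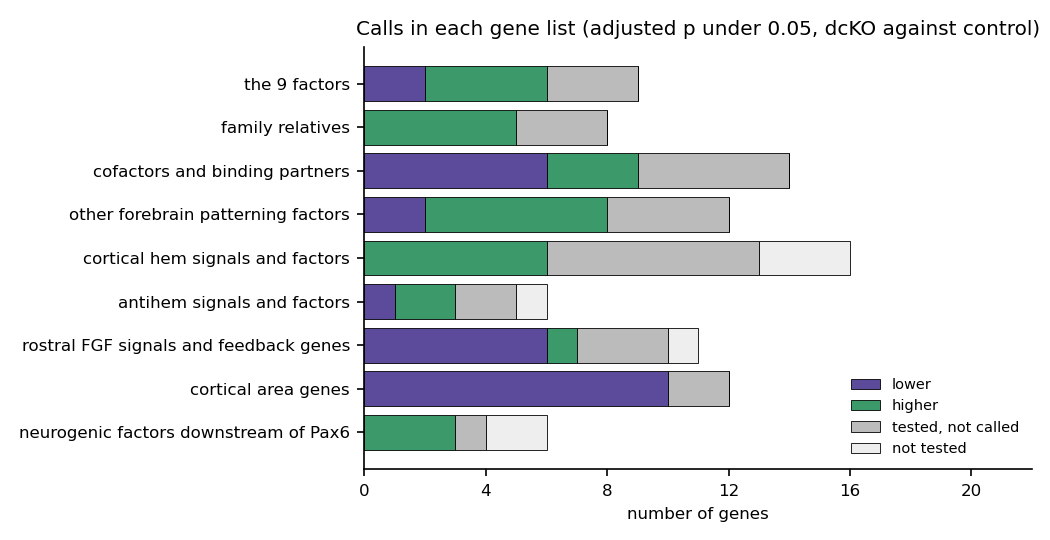
Number of tested genes called lower and higher by edgeR (adjusted p under 0.05) in the 9 factors and in each of the 8 lists of related genes. Falls prevail among the cortical area genes (10 of 12) and the rostral FGF genes (6 of 10), and rises among family relatives (5 of 8) and cortical hem genes (6 of 13). Among all genes tested 18.9% were lower and 18.6% higher.

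Without mutant replicates 1 and 2, fewer genes were called in both directions, 9.18% lower and 8.06% higher among all genes in place of 18.9% and 18.6%. Over the 8 lists 17 genes were lower and 18 higher, in place of 25 and 26. Calls fell most to 3 higher family relatives, 3 lower cofactors, 3 higher other forebrain patterning factors and 3 lower rostral FGF genes. Cortical area genes kept 9 lower calls, cortical hem genes 4 higher and neurogenic factors 2 higher, while antihem calls did not change.

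The remaining marker lists gave the setting of these samples. Striatal markers, 7 of 10 higher and none lower, summed to 127 to 187 CPM in control and 381 to 744 CPM in mutant samples, with Ppp1r1b at 40.8 and 308 CPM. Oligodendrocyte precursor markers were lower for 5 of 5, with sums of 367 to 400 CPM in control and 220 to 295 CPM in mutant samples. Endothelial markers were lower for 3 of 5. Their sums nearly touched, at 144.0 to 188.6 CPM in control and 84.3 to 143.8 CPM in mutant samples. Of the microglial markers 4 of 6 were higher. Astrocyte markers had 1 of 5 lower, with overlapping sums. Of the choroid plexus markers 6 of 7 were tested and 2 were higher. Mitochondrial genes took 2.06 to 3.23% of the counts in control and 3.57 to 5.47% in mutant samples, and their part in the results was not tested. Whether tissue boundaries at dissection differed between the groups was not measured.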

How the data were processed

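The authors isolated total RNA with TRIZOL, made libraries with the TruSeq RNA kit (version 2), which does not mark strand, aligned reads to mm10 and counted them per gene with featureCounts. They deposited raw counts by Ensembl identifier with no normalization. The aligner and the handling of reads shared by several genes are not given in the sources used here. Of 48709 genes, 48349 matched GENCODE's annotation of the same build.

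The 4 control and 4 mutant samples were grouped by the labels. Counts were tested with edgeR (version 4.0.16, R version 4.3.3), with TMM normalization, its filter on low counts (minimum count 10), robust dispersions and no covariate. Standard errors were derived from each fold change and F value. Single values were compared by exact two-sided permutation. Levels between genes used CPM divided by the kilobases of merged exons. Alternatives were DESeq2 (version 1.42.0), limma-voom (version 3.58.1), other scalings and filters, the lane, the replicate number and each sample left out. The scripts were tested on simulated data. No pair of replicates agreed within sampling noise.

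The members and lists were chosen with earlier results of these data known. All members and family relatives, all genes overlapping a member, and up to 2 rises and 2 falls with the largest change per list were named, with the most abundant or defining genes of marker lists. A few other list members were named after their values were seen, as were the untested Neurog1, Neurod4 and Fgf8. The tested ones were Ldb1, Sox2, Nes, Tshz1, Th, Htr3a, Vip, Prox1, Ppp1r1b, Neurod6, Prkcd, Rora, Otx2, Tcf7l2, Slc17a6, Fgf17, Il17rd, Dusp6, Etv1 and Etv4. P-values measure only the spread between these samples, and a low count carries counting error that they cover in part. Values of a few genes chosen this way are left out here.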

Additional observations from a re-analysis of the deposited data

How the results depend on the processing

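Emx1, Lhx2, Lhx9 and Pax6 kept their direction and their call under all 18 alternatives, with edgeR, DESeq2 or limma adjusted p of at most 0.000414, 0.000942, 0.00101 and 0.00393. With each sample left out in turn, the log2 fold changes ranged from -2.29 to -2.03 for Emx1, from -1.66 to -1.43 for Lhx2, from 2.45 to 2.88 for Lhx9, from 1.18 to 1.45 for Pax6 and from 0.41 to 0.61 for Nr2f1. The number of factors called lower was 2 in every alternative, and the number called higher was 3 to 4 with each sample left out and 2 without mutant replicates 1 and 2, an alternative chosen after seeing the data, as was lane 5 alone. Without those replicates Nr2f1 was at 0.39 (adjusted p = 0.124) and Dmrt3 at 0.63 (adjusted p = 0.368), and 1581 genes were lower and 1388 higher overall. In lane 5 alone 1951 genes were higher overall. Leaving out each sample in turn gave 2375 to 3273 lower and 2199 to 3308 higher genes. Scaling by library totals moved the median of all genes to 0.15 and the calls to 2108 lower and 4579 higher, against 3128 and 3074.

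Dmrt3 lost its call with limma-voom (1.13, adjusted p = 0.0513) and with the replicate number as a block (1.06, adjusted p = 0.0673), and ranged from 0.82 to 1.31 with each sample left out, where 5 of 8 fits lost the call. Nr2f1 kept its call in the other 17 alternatives. Dmrt3 was not tested where at least 10 counts in every sample were required, and that filter left 3 cortical hem genes called higher. Emx2 and Sp8, not called in any alternative, changed sign. Emx2 was at 0.01998 with library totals and ranged from -0.22 to 0.0046 with each sample left out. Sp8 was at 0.0822 with library totals and ranged from -0.17 to 0.0424 with each sample left out. The cause was not tested.

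Same-numbered control and mutant samples shared a lane, and the labels do not say whether the numbers also pair the animals. The deviations of same-numbered samples from their group means correlated at 0.1715, -0.0679, 0.2133 and -0.0238. Control replicate 1 correlated nearly alike with mutant replicates 1 and 2 (0.1715 and 0.1732). Correlations this weak cannot exclude a pairing. With the replicate block 2982 genes were lower and 2932 higher. The log2 differences of the ratios ranged with each sample left out from 1.90 to 2.22 for Emx2 to Emx1, from 3.91 to 4.53 for Lhx9 to Lhx2 and from -1.72 to -1.09 for Dmrta2 to Dmrt3, with an exact p of 0.0571, the smallest possible there. As differences within numbered pairs (the replicate block) they were 2.02, 4.29 and -1.49, with an exact p of 0.125, again the smallest possible. With 12, 3, 19 and 14 counts in control, depth limits Dmrt3 most.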
